A study of Mus musculus with 289 samples.

Results

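The genes described are 10 that handle glycogen, glucose and lactate: Ppp1r3c, Ppp1r3g, Pygb, Pygm, Gys1, Phkg1, Slc2a1, Slc16a1, Ldha and Ldhb. They were chosen by name, with no measured value, and each has a row in all 5 tables of counts, which together hold rows for 55487 genes. The cells were astrocytes of the cerebral cortex of adult transgenic mice that express Cas9, each drawn from the tissue with an electrophysiology pipette and sequenced as its own Smart-seq2 library. The mice were injected in the cortex with a lentivirus named Mok-LV, made to act in astrocytes, which carried guide RNAs (gRNAs) against the transcription factor Sox9, against the transcription factor Trps1 or against both, or a control gRNA.

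Here 254 of 289 labelled samples were analysed: 242 astrocytes in 16 pools and 12 in-slice controls, libraries made without a cell. A pool is all the cells of 1 gRNA label, day after injection and batch. In batch 1 the pools were control gRNA (10 cells), both gRNAs (4) and no gRNA (31). The labels of its gRNA cells count up from day 8 to day 16 with control gRNA and from day 17 to day 20 with both, so no day was used there. In batch 2 they were control gRNA at day 7 (8 cells), control gRNA at day 21 (7) and both gRNAs at day 21 (8). In batch 3 they were Sox9 gRNA (21 cells) and both gRNAs (14), each at day 7, and no gRNA (6). In batch 4, at day 21, they were Sox9 gRNA (16 cells), control gRNA (15) and both gRNAs (13), with Trps1 gRNA (15) at day 7, for which that batch gives no control of the same day. In batch 5 they were Sox9 gRNA (21 cells) and Trps1 gRNA (30), each at day 21, and no gRNA (23). Cells with no gRNA are labelled adult, with no day, and the sources used here do not say whether their animals were given a virus. Neither strain, sex, the promoter that drives Cas9 nor the animal of a cell is stated in the labels, so each pool counts as 1 sample and no value below has a replicate error or a p-value. Another 35 samples of batch 4 were not analysed here.

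Astrocytes hold most of the brain's glycogen. Glycogen synthase (Gys1) builds the chains, and glycogen phosphorylase, here the brain form Pygb and the muscle form Pygm, cuts glucose units off them once phosphorylase kinase, of which Phkg1 is a catalytic subunit, has switched it on. Ppp1r3c and Ppp1r3g are scaffolds that bring protein phosphatase 1 to glycogen, where it turns the synthase on and the phosphorylase off. Slc2a1 (GLUT1) carries glucose into the cell, lactate dehydrogenase (subunits Ldha and Ldhb) interconverts pyruvate and lactate, and Slc16a1 (MCT1) carries lactate across the membrane. Noradrenaline, adenosine and vasoactive peptides act on this store through receptors on astrocytes.

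Start regions of 4 of these genes are shown because they set the members apart by their letters: the pair of lactate dehydrogenase genes, the scaffold Ppp1r3c and the lactate transporter Slc16a1. They are RefSeq sequences of GRCm38.p6, read 5′ to 3′ on the gene's strand, from the 250 bases upstream of the start site without any base that falls in an annotated exon of the gene. In the first 3, capitals mark ACGTG or its reverse complement CACGT, the core of the element that hypoxia-inducible factors bind, which also sits inside the E-box CACGTG. In Ldhb, capitals mark ACAAT or ATTGT, a core bound by Sox proteins, and GATA or TATC, the core bound by GATA-type factors such as Trps1.
Ldha, first of 2 listed start sites, chr7:46845554-46845803, plus strand: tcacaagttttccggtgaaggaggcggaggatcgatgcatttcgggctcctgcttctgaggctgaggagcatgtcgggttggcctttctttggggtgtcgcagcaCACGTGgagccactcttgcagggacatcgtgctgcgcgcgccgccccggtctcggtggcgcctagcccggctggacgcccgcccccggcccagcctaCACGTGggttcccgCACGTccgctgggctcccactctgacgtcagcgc
Ppp1r3c, chr19:36736654-36736854, minus strand: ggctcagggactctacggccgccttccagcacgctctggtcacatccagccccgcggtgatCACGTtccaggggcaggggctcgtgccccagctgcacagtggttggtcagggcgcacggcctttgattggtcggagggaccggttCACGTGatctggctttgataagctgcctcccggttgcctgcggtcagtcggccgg
Slc16a1, chr3:104638414-104638663, plus strand: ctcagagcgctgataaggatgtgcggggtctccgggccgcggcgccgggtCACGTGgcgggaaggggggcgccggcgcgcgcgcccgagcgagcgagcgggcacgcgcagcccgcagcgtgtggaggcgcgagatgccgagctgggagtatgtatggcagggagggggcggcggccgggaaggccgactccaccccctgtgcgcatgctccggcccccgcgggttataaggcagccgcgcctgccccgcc
Ldhb, chr6:142507958-142508207, minus strand: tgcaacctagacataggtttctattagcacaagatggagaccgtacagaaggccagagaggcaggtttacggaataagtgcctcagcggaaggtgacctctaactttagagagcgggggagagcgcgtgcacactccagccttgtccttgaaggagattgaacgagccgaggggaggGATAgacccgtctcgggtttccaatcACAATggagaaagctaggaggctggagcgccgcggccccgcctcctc

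The Ldha region held 3 matches to ACGTG on either strand, 2 of them inside CACGTG, while the Ldhb region held none. Over the full window of 250 bases, 7 of the 10 genes held this core (Ppp1r3c, Ppp1r3g, Pygb, Pygm, Slc2a1, Slc16a1 and Ldha), against 16.6% of the 32817 windows of the same length in the table. Ldhb was the 1 gene of 10 with the Sox core, which 27.7% of all windows held, and 6 of 10 held GATA, against 53.6%. The core TGACG of the cyclic AMP response element, or its reverse complement CGTCA, was in the windows of 3 of 10 genes and in 17.7% of all windows. The member windows held 50.8% to 76.4% G and C, and the median of all windows was 52.4%. These are counts of letters in a fixed window, with no measure of binding.

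Depth and labels bear on every value below. The 242 astrocytes had 15959 to 4656612 reads in genes, with 3 cells under 100000 reads, all of them among the 6 no gRNA cells of batch 3. Levels are given as CPM, a gene's summed counts in a pool scaled to 1000000 reads in genes. As for the targeted genes, Sox9 stood at 189 CPM in the cells labelled Sox9 gRNA against 177 under control gRNA in batch 4, at 1303 against 382 with no gRNA in batch 3 and at 233 against 309 in batch 5, so it was not lower in 2 of these 3 batches. Trps1 stood at 57.6 CPM in the cells labelled Trps1 gRNA against 91.9 with no gRNA in batch 5, and at 103 CPM in those of batch 4, which have no control of their day. With both gRNAs, against the control of the same comparison, Sox9 was higher in batch 1 (1860 against 209 CPM), batch 2 (905 against 491) and batch 3 (1492 against 382) and lower in batch 4 (133 against 177). Trps1 was higher there in batch 1 (112 against 4.61 CPM), batch 3 (294 against 109) and batch 4 (16.7 against 3.35) and lower in batch 2 (19.4 against 107). The target sites are not given in the sources used here, and counts over the whole gene do not show whether a reading frame was broken. All 10 astrocyte markers were read in every pool of astrocytes, with a summed level of 1652 to 16350 CPM. Markers of microglia and macrophages were also read in every pool. Their sum was 228 to 289 CPM in the 3 no gRNA pools, where C1qb, C1qc, Cx3cr1 and Tmem119 were at 0 in batch 3, and 4246 to 10019 CPM in the 13 gRNA pools. Cell by cell, the astrocyte list had the highest sum of the 7 marker lists in 136 of 242 cells, the microglial list in 61, the neuronal in 26, the oligodendrocyte in 12, the red blood cell list in 7 and the endothelial in 0, the red blood cell ones all under Sox9 gRNA in batch 4. Members past the fold are therefore also given for the cells led by astrocyte markers alone, a choice made after seeing the data. The further pathway genes and the shares of paired genes are given for all cells only.

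Ldhb was the gene of the group read most often and most strongly. Per kilobase of merged exon, which puts different genes on a rough common scale, its median over the 16 pools was 400 CPM (162 to 884), and 229 of 242 astrocytes had a read. Ldha followed at 112 CPM per kilobase (60.2 to 272) in 193 cells. Then came Ppp1r3c at 40.6 (0.911 to 181) in 95 cells, Pygb at 33.4 (0.487 to 91.8) in 140, Slc2a1 at 25 (0.105 to 110) in 93 and Phkg1 at 18.1 (0.128 to 29.5) in 127. Slc16a1 at 5.68 (0 to 61.2) in 69 cells, Pygm at 5.45 (0 to 43.0) in 60, Gys1 at 3.83 (0 to 16.4) in 56 and Ppp1r3g at 3.22 (0 to 66.0) in 47 closed the order. The ranges over pools overlapped between each pair of neighbours in this order, so that order is one of medians. Within a pool Ldhb stood above Ldha per kilobase in 16 of 16. That count depends on the division by exon length, 3.31 kilobases for Ldha and 1.57 for Ldhb. Without it, Ldha held 54.7% of the pair's reads with both gRNAs in batch 1. In batch 4 it then held 64.7% under Sox9 gRNA and 50.1% with both gRNAs. Per kilobase, Ldha also held 52.5% with both gRNAs in batch 1 once 1 cell was left out.

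**Figure D1:**
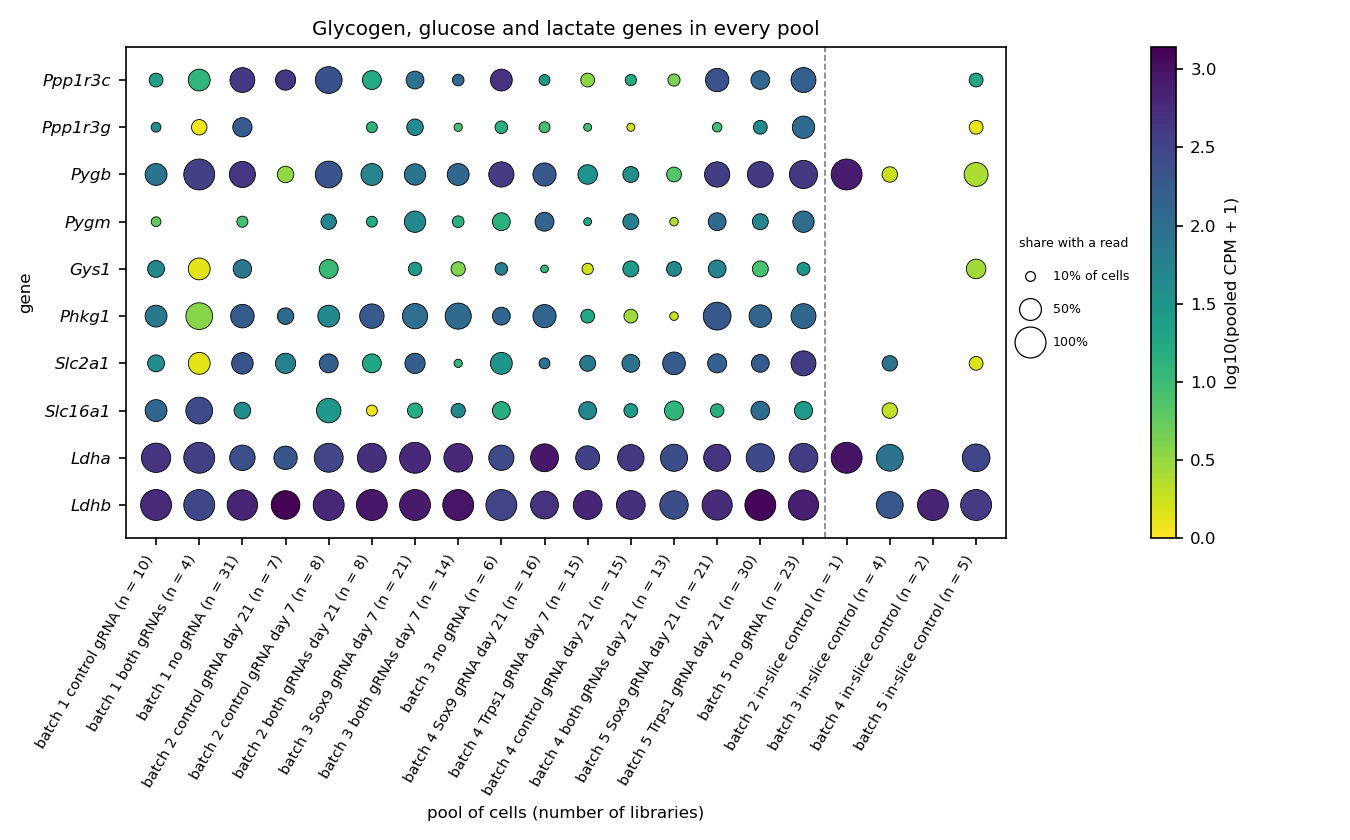
Pooled level (colour, log10 of CPM + 1) and share of cells with a read (area of the disc) of the 10 genes in the 16 astrocyte pools and, right of the dashed line, the 4 pools of in-slice controls. Ldha and Ldhb were read in every astrocyte pool, while Ppp1r3g, Pygm, Gys1 and Slc16a1 each had pools with no read.

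Apart from Ldha and Ldhb, a pool's level was usually carried by few cells. The highest cell held a median of 23.9% of a pool's Ldhb reads and 31.1% of its Ldha reads, but 50.7% for Pygb, 60.1% for Slc2a1, 61.5% for Ppp1r3c, 61.8% for Phkg1, 67.3% for Gys1, 74.3% for Slc16a1, 77.7% for Pygm and 100% for Ppp1r3g. Members read per cell had a median of 3 to 6.5 in the 16 pools, and single cells had a read of 0 to 10 of the 10. A read of 1 member said little of another: the strongest rank correlation between members across 238 cells, taken within pools, was 0.29, for Ppp1r3g and Pygb, and those cells share depth and pool.

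Because single cells carry so much, a gene is called past the fold only if its pooled CPM + 5 differed at least 2-fold (a log2 ratio of 1 or more) in the same direction with all cells and again without the highest cell of each pool. In-slice controls show what the pipette picks up without a cell. Of their 12 libraries, 10 had Ldhb reads, 8 Ldha, 5 Pygb, 2 Slc2a1 and 2 Gys1, 1 each Ppp1r3c, Ppp1r3g and Slc16a1, and 0 Phkg1 or Pygm. Their highest values were 1546 CPM for Ldhb, 967 for Ldha, 767 for Pygb and 512 for Slc2a1, all within the range of single astrocytes.

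Of the glycogen scaffolds, Ppp1r3c (ENSMUSG00000067279, chr19:36731731-36736653, GRCm38) stood at 422 CPM in no gRNA cells of batch 1, 494 in those of batch 3 and 160 in those of batch 5. Its gRNA pools ranged from 2.48 CPM (Trps1 gRNA of day 7, batch 4) to 430 (control gRNA of day 21, batch 2). The 4 pools of batch 4 were the lowest of all apart from those with both gRNAs in batches 1 and 2 and control gRNA in batch 1: 2.48, 3.22, 16.1 and 27 CPM, each with 2 or 3 cells with a read. Ppp1r3g (ENSMUSG00000050423, chr13:35958839-35970388) stood at 178 CPM in no gRNA cells of batch 1, 114 in those of batch 5 and 13.9 in those of batch 3, and its highest gRNA pool was at 45.4 CPM (Sox9 gRNA, batch 3). It had no read in either control gRNA pool of batch 2 or in the double gRNA pool of batch 4, which allow up to 0.201, 0.165 and 0.179 CPM at 3 counts a pool.

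The phosphorylases differed in how widely they were read. Pygb (ENSMUSG00000033059, chr2:150786735-150831758) reached 382 to 430 CPM in the 3 pools of batch 5, 442 and 393 CPM in the no gRNA cells of batches 1 and 3, and at the other end 2.34 CPM in control gRNA cells of day 21 in batch 2. Pygm (ENSMUSG00000032648, chr19:6384399-6398459) was highest at 138 CPM (Sox9 gRNA, batch 4), 116 (Sox9 gRNA, batch 5) and 111 (no gRNA, batch 5), and was not read in 2 pools. Of the reads of the pair per kilobase, Pygb held a share from 29.9% (control gRNA, batch 4) to 100% (both gRNAs in batch 1 and control gRNA of day 21 in batch 2). These shares can rest on 1 cell. Without the cell with most reads of the pair, the share with control gRNA in batch 4 went from 29.9% to 93.1%. The share with both gRNAs in batch 2 went from 68.5% to 6.82%.

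Gys1, Phkg1 and Slc2a1 share exon bases with a gene on the other strand (310 with Ruvbl2, 630 with Sumf2 and 105 with the antisense gene Gm12868), and the sources used here do not say how strand was counted. Gys1 (ENSMUSG00000003865, chr7:45434844-45456619), the synthase, stayed between 0 and 78.6 CPM and was read in at most 11 cells of a pool. Phkg1 (ENSMUSG00000025537, chr5:129863421-129898549) stood at 127 to 192 CPM in all 3 pools of batch 5 and 103 to 129 CPM in all 3 of batch 3, but between 0.836 and 135 CPM in batch 4. Slc2a1 (ENSMUSG00000028645, chr4:119108711-119137983), the glucose transporter, was highest in the no gRNA cells of batch 5 (386 CPM) and batch 1 (219 CPM), though only 32.1 CPM in those of batch 3. Slc16a1 (ENSMUSG00000032902, chr3:104638668-104658462), the lactate transporter, was highest under both gRNAs in batch 1 (271 CPM, with 86.2% of the reads in 1 of 4 cells) and was not read under Sox9 gRNA in batch 4 or in control gRNA cells of day 21 in batch 2. Ldha (ENSMUSG00000063229, chr7:46841475-46855627), which has 2 named pseudogenes whose reads may be shared with it, ranged from 199 to 901 CPM, and Ldhb (ENSMUSG00000030246, chr6:142490249-142507957) from 254 to 1388 CPM.

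**Figure D2:**
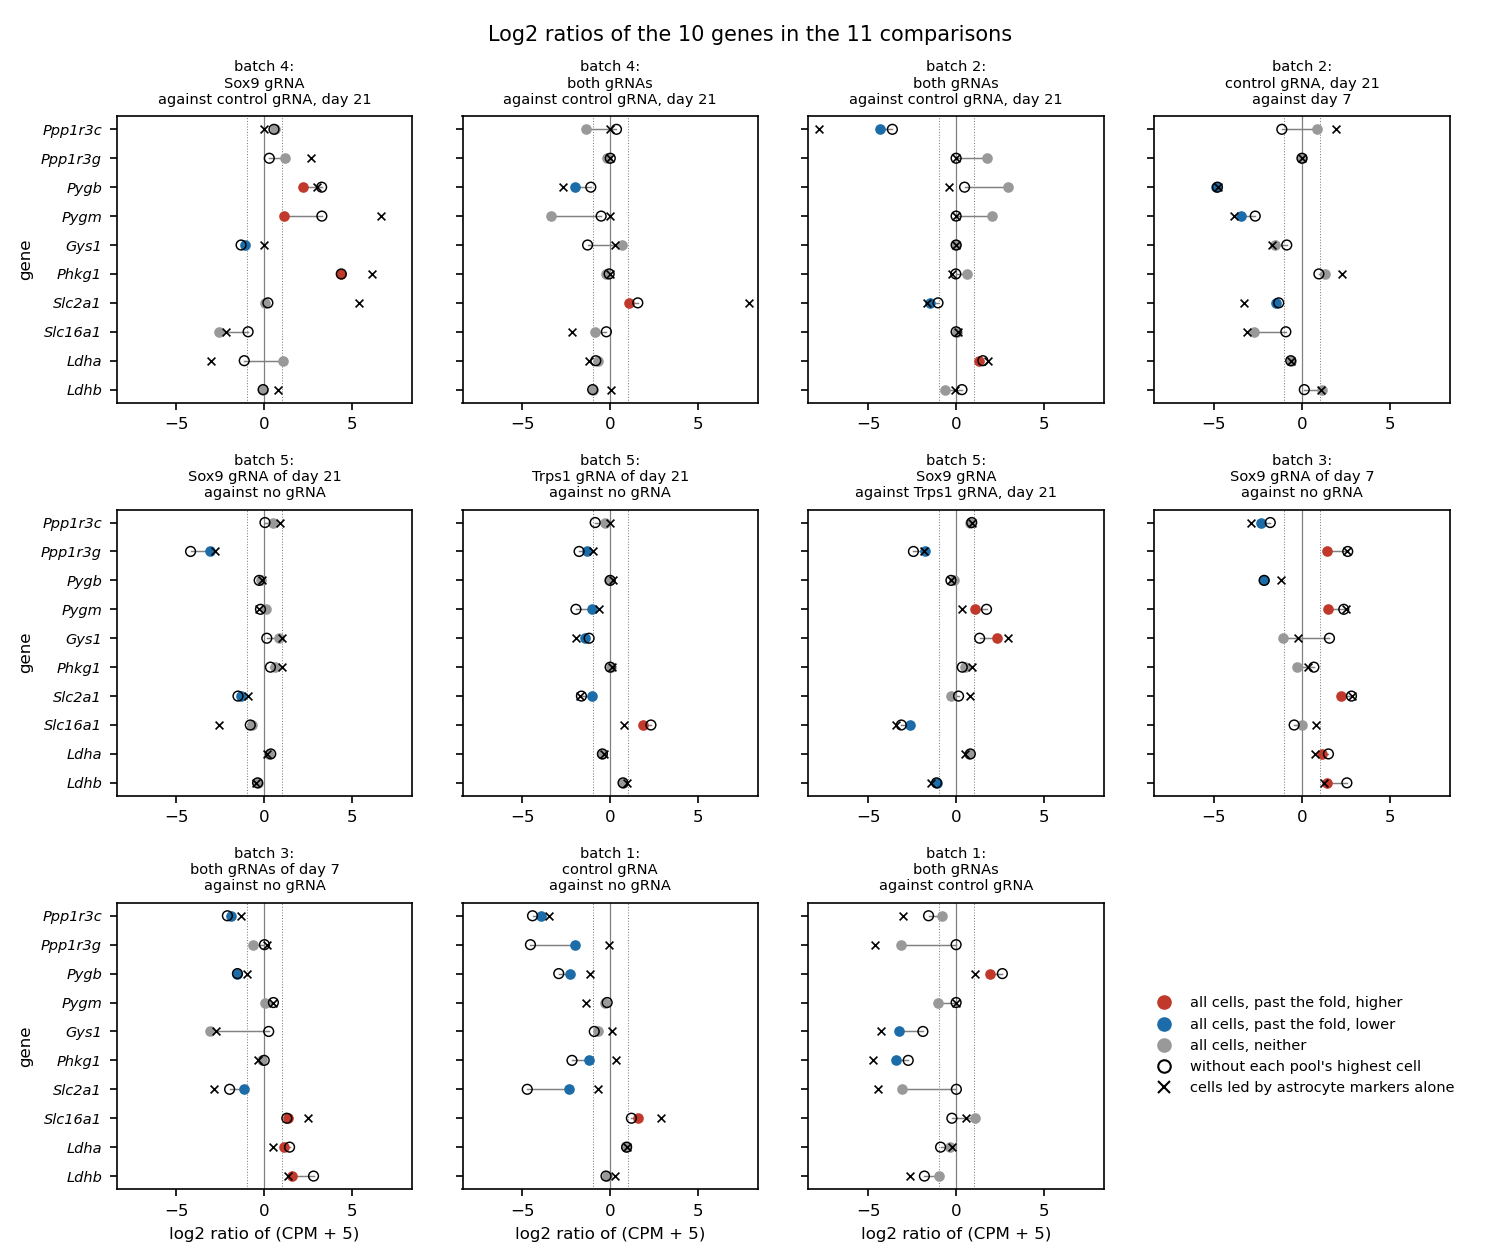
Log2 ratios of (CPM + 5) of the 10 genes in the 11 comparisons; dotted lines mark a log2 ratio of 1 in either direction. Filled discs use all cells (red and blue are past the fold), open circles leave out each pool's highest cell, and crosses use the cells led by astrocyte markers alone. Grey discs far from their open circle, such as Ldha under Sox9 gRNA in batch 4, are ratios that 1 cell carried.

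In batch 5, the largest by cells, no gRNA cells had more of the glucose transporter and of the scaffold Ppp1r3g than the cells with either gRNA. Slc2a1 was read in 15 of 23 no gRNA cells (lowest 0, median 78.4, highest 1269 CPM a cell), in 8 of 21 Sox9 gRNA cells (0, 0 and 756 CPM) and in 10 of 30 Trps1 gRNA cells (0, 0 and 2319 CPM). Its pooled level was 386 CPM (95% counting interval 377 to 395) against 150 CPM (145 to 156) and 183 CPM (177 to 188). So the typical no gRNA cell held Slc2a1 reads and the typical gRNA cell did not, although the ranges of single cells overlapped. Ppp1r3g was read in 12 of 23 no gRNA cells (0, 1.26 and 353 CPM), in 2 of 21 Sox9 gRNA cells (0, 0 and 178 CPM) and in 6 of 30 Trps1 gRNA cells (0, 0 and 731 CPM). Pooled, it stood at 114, 8.96 and 42.0 CPM. With every cell thinned to 100000 reads, the expected shares of cells with a read were 54.3%, 38.1% and 29.1% for Slc2a1 and 44.4%, 8.58% and 16.1% for Ppp1r3g, from 65.2%, 38.1% and 33.3% and from 52.2%, 9.52% and 20% before. In both genes a smaller share of gRNA cells had a read, while the highest single cell was one with Trps1 gRNA.

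Against no gRNA, 2 members were past the fold under Sox9 gRNA, both lower, and 0 higher. They were Ppp1r3g, with a log2 ratio of -3.09 (-4.20 without the highest cells), and Slc2a1, with -1.33 (-1.50). Of all 12287 genes considered (5 CPM or more in the higher pool), 13.7% were higher and 13.9% lower, and the median log2 ratio was 0.07, against -0.05 over the 10 members. Among cells led by astrocyte markers (12 of 21 and 20 of 23) Ppp1r3g was at -2.82 and Slc2a1 at -0.95. The summed microglial markers of these pools were 9006 and 228 CPM, and their part in the ratios was not tested beyond that restriction. The other 8 members differed less than 2-fold in the pooled level, among them Pygb (382 against 430 CPM), Pygm (116 against 111), Ldha (466 against 384) and Ldhb (575 against 752).

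Under Trps1 gRNA, compared with the same no gRNA cells, 1 member was higher and 4 were lower. Over all genes 18.8% were higher and 8.96% lower, and the median log2 ratio was 0.41, against -0.39 over the members. With ratios centred on the median of all genes, the share of higher genes among those past the fold went from 67.8% to 46.2%. Slc16a1 was the higher one, at 106 CPM against 25.4 (log2 ratio 1.87, and 2.31 without the highest cells), though it was read in similar shares of cells, 11 of 30 and 8 of 23. The lower ones were Gys1 at 7.14 against 28.4 CPM (-1.46), Ppp1r3g (-1.34), Slc2a1 (-1.06) and Pygm at 52.1 against 111 CPM (-1.02). Gys1 was nonetheless read in a larger share of the Trps1 gRNA cells, 8 of 30 against 4 of 23. In cells led by astrocyte markers (21 of 30 and 20 of 23) the ratios were -1.96 for Gys1, -1.72 for Slc2a1, -1.01 for Ppp1r3g, -0.64 for Pygm and 0.80 for Slc16a1, so the last 2 were no longer past the fold. Within the cells whose titles share the code 21T, Slc2a1 stood at 1.10 and Ppp1r3g at 0.39, and within those of code 21T2 Slc16a1 stood at -2.38, each on the other side of no gRNA, and against the no gRNA cells of code AG alone Gys1 stood at 1.28. With the mean of the cells' CPM in place of summed counts, 1 of the 5, Slc16a1, remained past the fold.

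Set against each other, Sox9 gRNA and Trps1 gRNA cells of batch 5 differed in 5 members, 2 higher and 3 lower under Sox9 gRNA. Over all genes 7.62% were higher and 18.2% lower, the median log2 ratio was -0.31 over all genes and 0.21 over members, and centring moved the share of higher genes from 29.5% to 51.3%. Higher were Gys1 (55.3 against 7.14 CPM, log2 ratio 2.31) and Pygm (116 against 52.1 CPM, 1.08). Lower were Slc16a1 (13.3 against 106 CPM, -2.61), Ppp1r3g (8.96 against 42.0 CPM, -1.75) and Ldhb (575 against 1246 CPM, -1.11). Ldhb was the 1 of these read in nearly every cell, in 20 of 21 (0, 532 and 1150 CPM) and 30 of 30 (2.1, 892 and 4932 CPM). Its 3 levels in batch 5 ran from 575 under Sox9 gRNA over 752 with no gRNA to 1246 under Trps1 gRNA, and neither step to no gRNA was past the fold (-0.38 and 0.73). In astrocyte-led cells Ldhb was at -1.44, Slc16a1 at -3.40, Gys1 at 2.98 (its call lost without the highest cells), Ppp1r3g at -1.81 and Pygm at 0.33. Centring put Ldhb at -0.79. The 21T cells alone gave 0.093 for Ldhb, and the 21T2 cells alone gave 1.65 for Slc16a1.

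**Figure D3:**
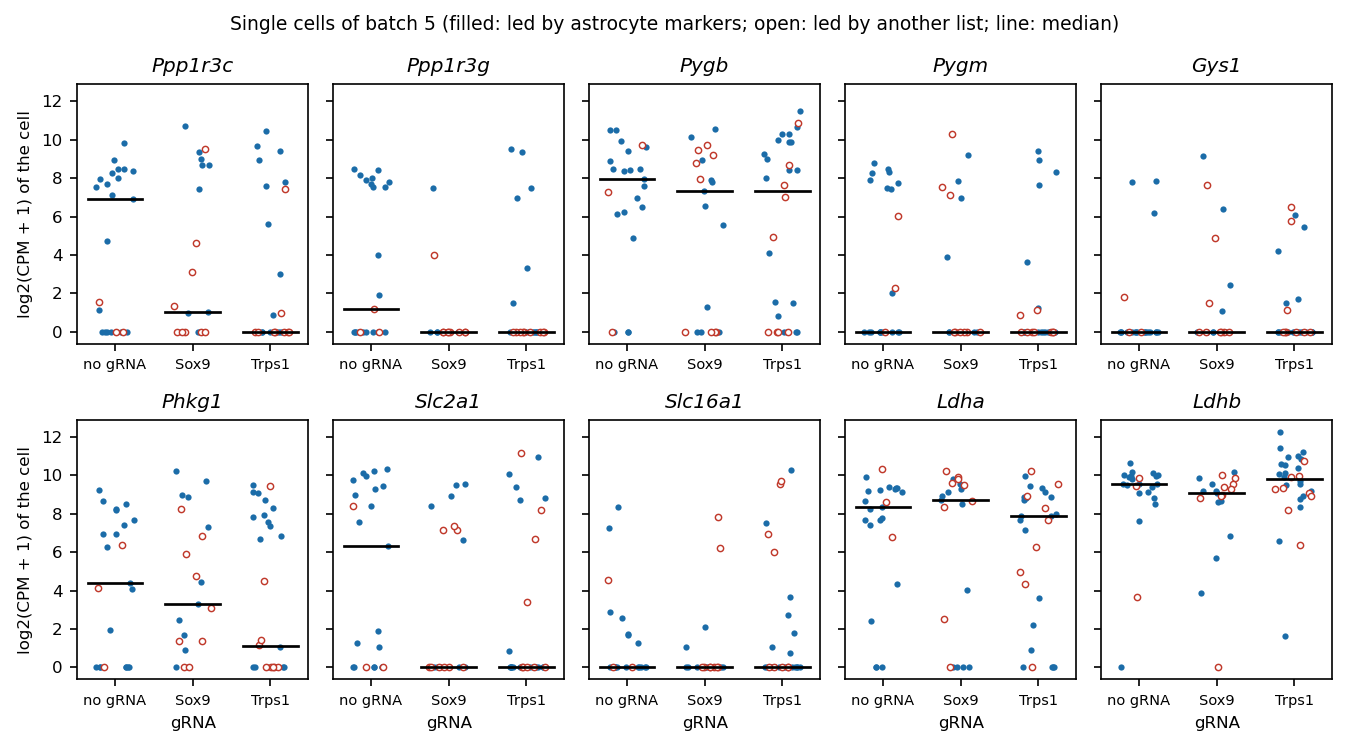
Level of each member in the single cells of batch 5, as log2(CPM + 1), by gRNA; filled points are cells led by astrocyte markers, open points cells led by another list, and the line is the median. Slc2a1 and Ppp1r3g have a median above 0 in no gRNA cells alone, and Ldhb is read in 72 of the 74 cells.

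In batch 4, Sox9 gRNA cells of day 21 had higher pooled levels of Phkg1, Pygb and Pygm than control gRNA cells of that day, and a lower level of the liver phosphorylase Pygl (26.3 against 142 CPM). Phkg1, the kinase subunit that acts on phosphorylase, was read in 9 of 16 Sox9 gRNA cells (0, 2.75 and 615 CPM) and in 3 of 15 control cells (0, 0 and 32.1 CPM), and its pooled level was 135 CPM (130 to 141) against 1.92 CPM (1.34 to 2.68). Thinned to 100000 reads a cell, the shares went from 56.2% to 42.4% and from 20% to 9.54%. Both phosphorylases stood on the same side: Pygb at 193 against 38.9 CPM, in 9 and 4 cells, and Pygm at 138 against 60.9 CPM, in 6 and 4 cells. The control level of 60.9 CPM for Pygm lay to 96.8% in 1 cell. Gys1, the synthase, stood at 10 CPM, all in 1 of 16 cells, against 26.7 CPM in 4 of 15.

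These 4 made 3 members higher and 1 lower, with log2 ratios of 4.34 for Phkg1, 2.18 for Pygb, 1.12 for Pygm and -1.08 for Gys1 (4.37, 3.25, 3.26 and -1.33 without the highest cells). Of 11550 genes 8.22% were higher and 20.7% lower, the median log2 ratio was -0.59 over all genes and 0.84 over members, and centring moved the share of higher genes from 28.4% to 49.2%. Sumf2, whose exons overlap those of Phkg1 on the other strand, stood at 39.3 CPM against 12.4. Ldha was at 901 against 425 CPM, but 84.2% of the reads were in 1 cell, and without the highest cells the ratio turned from 1.08 to -1.15. Slc16a1 had no read in 16 cells and 24.9 CPM in the control pool, at least 145-fold lower in the pool, yet without the highest cells the log2 ratio was -0.93. The pools differed in other cells' markers as well: 4 of 16 and 4 of 15 cells were led by astrocyte markers, 7 by red blood cell markers in the Sox9 gRNA pool (summed level 9715 against 42.1 CPM) and 10 by microglial markers in the control pool. In the astrocyte-led cells, 4 against 4, the ratios were 6.12 for Phkg1, 3.01 for Pygb and 6.62 for Pygm, and Gys1 had no read on either side. Phkg1 was read in 3 and Pygm in 2 of these Sox9 gRNA cells, and both had no read in the control cells. The size of their ratios thus depends on the 5 CPM added to each side. Within the Sox9 gRNA cells whose titles share the code 21S, Pygb was at -2.16 and Pygm at -3.02, below the control, and Phkg1, at 3.43, lost the call without the highest cells. Gys1 was at -0.81 with the mean of the cells' CPM and at -0.49 with ratios centred on all genes.

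With both gRNAs in batch 4, compared with the same control cells, the glucose transporter was higher and Pygb lower. Slc2a1 was read in 7 of 13 cells (0, 0.648 and 3109 CPM) and in 5 of 15 controls (0, 0 and 509 CPM), at 185 against 86.4 CPM (log2 ratio 1.06, and 1.56 without the highest cells). Pygb stood at 5.91 against 38.9 CPM (-2.01), in 3 and 4 cells. With 1 higher and 1 lower of 8 members considered, the members' median was -0.92. Over all genes 7.99% were higher and 17.3% lower, with a median of -0.43, and centring moved the share of higher genes from 31.5% to 48.2%. Ldhb stood at 254 against 512 CPM, a log2 ratio of -0.99 that missed the fold. Microglial markers led 10 cells on each side, and 2 of 13 cells against 4 of 15 were led by astrocyte markers. In these the Slc2a1 ratio was 7.86, from 1 cell, which the rule on highest cells does not pass. The Pygb ratio was -2.67, with no read in the 2 cells with both gRNAs, and neither call was kept.

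The same pair of labels in batch 2 gave Slc2a1 the other way. There it stood at 17.6 CPM with both gRNAs (3 of 8 cells, 94.0% of the reads in 1) and at 57.3 CPM with control gRNA of day 21 (3 of 7 cells, 88.4% in 1), a log2 ratio of -1.46. Ppp1r3c was at 16.5 against 430 CPM (-4.34, and -3.62 without the highest cells), each time in 3 cells and with 99.4% and 87.9% of the reads in 1 of them. Ldha was higher, at 502 CPM in 7 of 8 cells (0, 529 and 1394 CPM) against 199 CPM in 4 of 7 (0, 48.1 and 466 CPM), a log2 ratio of 1.31. Of 8 members considered 1 was thus higher and 2 lower. Over all genes 11.8% were higher and 14.5% lower, and the median log2 ratio was -0.37, against 0.97 over members. In astrocyte-led cells, 4 against 3, Ldha was at 1.79, Ppp1r3c at -7.79 and Slc2a1 at -1.67, the last read in 1 cell a side and so no longer past the fold by the rule on highest cells. Ppp1r3c had no read in the 4 with both gRNAs, so the size of its ratio depends on the 5 CPM added to each side.

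Batch 2 is also the 1 batch in which control gRNA cells of both days were analysed. Pygb was read in 6 of 8 cells of day 7 (0, 139 and 736 CPM) and in 2 of 7 of day 21 (0, 0 and 19.2 CPM), at 213 against 2.34 CPM, a log2 ratio of -4.89 from day 7 to day 21. Pygm went from 50.5 CPM in 2 cells to no read in 7 cells, at least 252-fold lower. Slc2a1 went from 165 CPM in 3 of 8 cells to 57.3 CPM in 3 of 7 (-1.45). These 3 members were lower and 0 higher, against 21.9% and 9.33% of all genes, and the median was -1.45 over 9 members and -0.42 over all genes. Slc16a1 (28.4 CPM, 5 of 8 cells) and Gys1 (9.68 CPM, 3 of 8) also had no read at day 21 but lost the call without the highest cell. Phkg1 (45.3 to 120.7 CPM, log2 ratio 1.32) and Ldhb (619 to 1388 CPM, 1.16) were higher at day 21 and lost the call likewise, at 0.96 and 0.13. Among astrocyte-led cells, 3 against 6, Pygb was at -4.75, Pygm at -3.86 and Slc2a1 at -3.27.

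In batch 3 the day 7 cells stood against 6 no gRNA cells of which 3 had under 100000 reads, and the whole set of genes was shifted towards higher levels with a gRNA. Under Sox9 gRNA 48.8% of genes were higher and 2.61% lower, with a median log2 ratio of 1.43, and with both gRNAs 40.0% and 4.45%, with 1.38. Against that shift the members' medians were 0.59 and -0.41. Under Sox9 gRNA 5 members were higher (Slc2a1 at 166 against 32.1 CPM, Pygm at 45.0 against 12.7, Ldhb at 844 against 312, Ppp1r3g at 45.4 against 13.9 and Ldha at 623 against 274) and 2 were lower, but with ratios centred on all genes 0 were higher and 3 lower, and Ppp1r3g, Ldha and Ldhb turned to -0.021, -0.26 and -0.011. The lower ones were Ppp1r3c (94.2 against 494 CPM, log2 ratio -2.33) and Pygb (84.2 against 393 CPM, -2.16). Slc2a1, though higher in pooled level, was read in 9 of 21 Sox9 gRNA cells and 3 of 6 no gRNA cells. With both gRNAs 3 were higher (Ldhb at 947 CPM, Ldha at 596 and Slc16a1 at 45.7 against 14.9) and 3 lower (Ppp1r3c at 131, -1.88; Pygb at 128, -1.58; Slc2a1 at 11.5, -1.17, in 1 of 14 cells), and centred 0 were higher and 5 lower, with Slc16a1 at -0.031 and Ldha at -0.28. Centring moved the share of higher genes from 94.9% to 51.1% and from 90.0% to 52.0%. Among astrocyte-led cells, 9 and 7 against 6, Ppp1r3c stood at -2.87 and -1.32 and Pygb at -1.21 and -1.01, the last no longer past the fold without the highest cells. With both gRNAs Ppp1r3c was read in 2 of 14 cells, and with the mean of the cells' CPM its ratio was -0.32, within 2-fold.

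In batch 1, the control gRNA cells had less of both scaffolds, of Pygb, of Phkg1 and of the glucose transporter than the no gRNA cells. Ppp1r3c was read in 2 of 10 control gRNA cells (0, 0 and 141 CPM) and in 20 of 31 no gRNA cells (0, 3.23 and 3030 CPM), at 22.8 against 422 CPM, a log2 ratio of -3.94. Slc2a1 stood at 39.5 against 219 CPM (-2.33, with 99.5% of the control gRNA reads in 1 cell), Pygb at 85.8 against 442 CPM (-2.30), Ppp1r3g at 39.9 against 178 CPM (-2.03, all in 1 of 10 cells) and Phkg1 at 75.7 against 185 CPM (-1.24). Slc16a1 was higher, at 126 against 39.6 CPM (1.55), in 5 of 10 and 9 of 31 cells. So 1 member was higher and 5 lower where 17.8% of all genes were higher and 17.8% lower, and the medians were -0.97 over members and 0.26 over all genes. Only 4 of 10 control gRNA cells were led by astrocyte markers, against 27 of 31, and the microglial sums were 9220 and 289 CPM. In astrocyte-led cells Ppp1r3c (-3.48), Pygb (-1.14) and Slc16a1 (2.91) stayed past the fold, while Slc2a1 stood at -0.69, Ppp1r3g at -0.09 and Phkg1 at 0.32.

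With both gRNAs in batch 1, 4 cells against those 10 control gRNA cells, Pygb stood at 343 against 85.8 CPM (1.94), read in 4 of 4 and 5 of 10 cells, Phkg1 at 2.57 against 75.7 CPM (-3.41) and Gys1 at 0.368 against 46.0 CPM (-3.25, counting interval -3.45 to -2.90, from 2 reads). That is 1 member higher and 2 lower, beside 4.56% and 30.7% of all genes, and medians of -0.98 over members and -1.65 over all genes. By their labels the 2 pools also differ in day, 17 to 20 with both gRNAs against 8 to 16 with control gRNA. Taken as labelled, gRNA and day cannot be told apart in this comparison. Centring moved the share of higher genes from 12.9% to 25.1%. In astrocyte-led cells, 3 against 4, the ratios were 1.10, -4.72 and -4.27, but the Gys1 reads of the control side lay in 1 of 4 cells and its call was lost without it.

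Side by side, Slc2a1 was past the fold on the lower side in 6 of the 11 comparisons and on the higher side in 2. Ppp1r3c was lower in 4 and higher in 0, Ppp1r3g lower in 4 and higher in 1, Pygb lower in 5 and higher in 2, Pygm lower in 2 and higher in 3, and Gys1 lower in 3 and higher in 1. Slc16a1 was higher in 3 and lower in 1, Ldha higher in 3 and lower in 0, Ldhb higher in 2 and lower in 1, and Phkg1 higher in 1 and lower in 2. Of the 18 higher calls, 8 come from batch 3, among them both of Ldhb, 2 of Ldha and 1 of Slc16a1, and with ratios centred on all genes 0 of these 8 remained. Centred, the 11 comparisons gave 13 higher and 28 lower calls in place of 18 and 28, with Ldhb at 0 of either, Ldha at 2 higher and Slc16a1 at 2 of each. Several of these comparisons share a pool of control or no gRNA cells, so the counts are not independent of each other. No member had the same call in all 5 comparisons with no gRNA cells. Ppp1r3c was lower in the 3 of batches 1 and 3 and within 2-fold in the 2 of batch 5.

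The balance of the lactate dehydrogenase subunits moved with the pool. Ldha, the subunit that dominates in muscle, held 19.5% of the reads of the pair per kilobase in no gRNA cells of batch 5, 27.7% under Sox9 gRNA and 9.56% under Trps1 gRNA. The medians of single cells with 20 or more reads of the pair lay close to these, at 19.9%, 28.5% and 13.3%. In batch 1 the share was 36.4% with both gRNAs, 27.4% with control gRNA and 14.7% in the cells without gRNA. Without the cell with most reads of the pair these were 52.5%, 29.8% and 17.7%. The median cells held 24.6%, 23.6% and 6.15%, so both gRNAs and control gRNA were close by that measure. In batch 3 the share was 29.4% with no gRNA, 25.9% under Sox9 gRNA and 23% with both. Thus the no gRNA pool was the lowest of its batch in batch 1, the highest in batch 3 and between the others in batch 5. In batch 2 it was 18.9% at day 7 and 6.38% at day 21 with control gRNA, and 21.1% with both gRNAs. Without the cell with most reads of the pair these were 20.9%, 10.6% and 19.8%, and the median cells held 8.45%, 5.48% and 28.3%. The highest share of all, 46.5% under Sox9 gRNA in batch 4, fell to 12.1% without 1 cell, and the median cell there held 2.44%; the other pools of that batch lay at 20.2% to 32.3%.

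**Figure D4:**
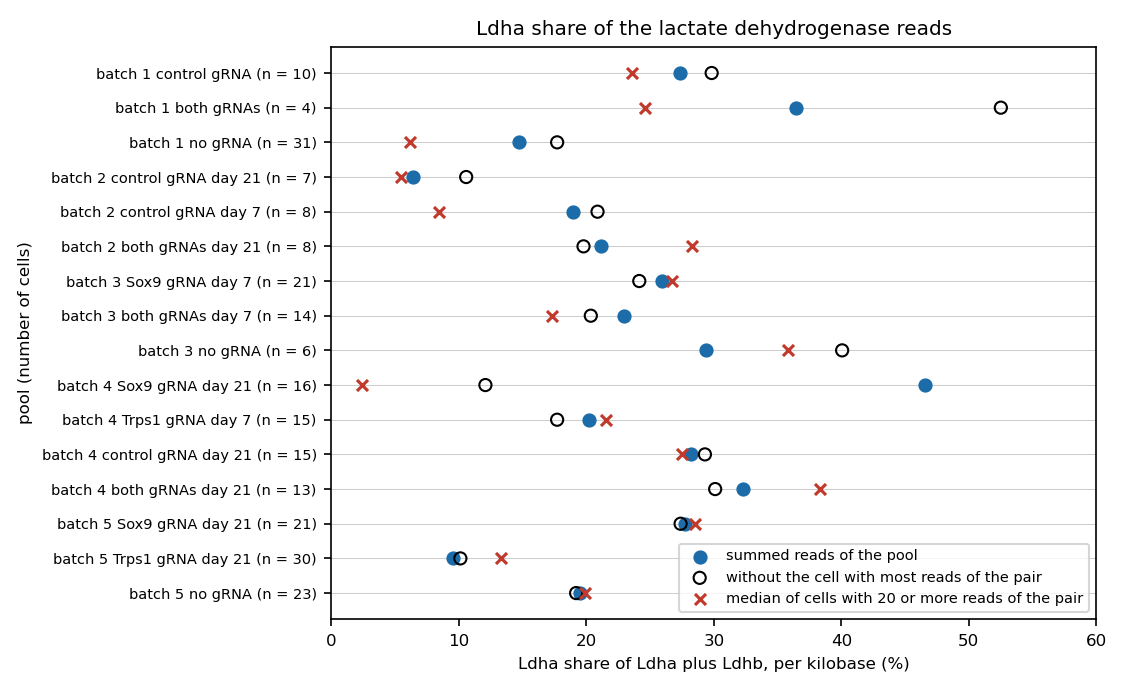
Share of Ldha in the reads of Ldha and Ldhb per kilobase of exon, for each of the 16 pools: summed reads (discs), without the cell with most reads of the pair (circles), and the median of cells with 20 or more reads of the pair (crosses). The 3 measures lie close together in the batch 5 pools and far apart under Sox9 gRNA in batch 4, at 46.5%, 12.1% and 2.44%.

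Members differed in how their reads went with the markers of a cell. Of the 136 cells led by astrocyte markers, 49.3% had a Ppp1r3c read, 27.2% a Ppp1r3g read, 69.1% a Pygb read and 61.0% a Phkg1 read. Of the 61 cells led by microglial markers the shares were 29.5%, 6.56%, 37.7% and 34.4%, although the median depth of those cells was higher (1368760 against 982135 reads). Thinned to 100000 reads a cell, with 3 shallower astrocyte-led cells left out, the shares were 42.2%, 23.3%, 58.0% and 52.5% against 20.8%, 4.38%, 25.7% and 20.2%. Mean levels per cell were 246 against 41.6 CPM for Ppp1r3c, 68.9 against 1.77 for Ppp1r3g, 337 against 74.5 for Pygb and 162 against 28.5 for Phkg1. Ldha went the other way, at 75.0% of astrocyte-led and 85.2% of microglia-led cells, with means of 281 and 508 CPM. Thinned, its shares were 64.98% and 71.6%, and the highest microglia-led cell stood at 8203 CPM. The other glycogen members had similar shares before thinning, 25.7% and 24.6% for Pygm and 22.1% and 21.3% for Gys1. Thinned, these were 23.2% against 16.2% and 16.98% against 12.3%. Their means were 66.1 against 40.3 CPM and 31.1 against 16.6 CPM. Slc2a1, which endothelium also expresses, had reads in 41.2% and 41.0% of the cells. Thinned, these were 32.3% and 30.5%, with means of 199 and 109 CPM. Of the 26 cells led by neuronal markers, 61.5% had a Phkg1 read, 53.8% Pygb, 23.1% Ppp1r3c and 19.2% Ppp1r3g. Thinned, these were 38.0%, 33.5%, 17.2% and 13.9%. Their means were 95.4, 99.2, 37.6 and 75.3 CPM, the last with 1 cell at 1849 CPM. Phkg1 and Pygb were each read in 71.4% of the 7 cells led by red blood cell markers. Of the 12 led by oligodendrocyte markers, 16.7% had Phkg1 and 33.3% Pygb reads. The cells of these classes come from different pools in different proportions, and these shares are a description with no test.

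**Figure D5:**
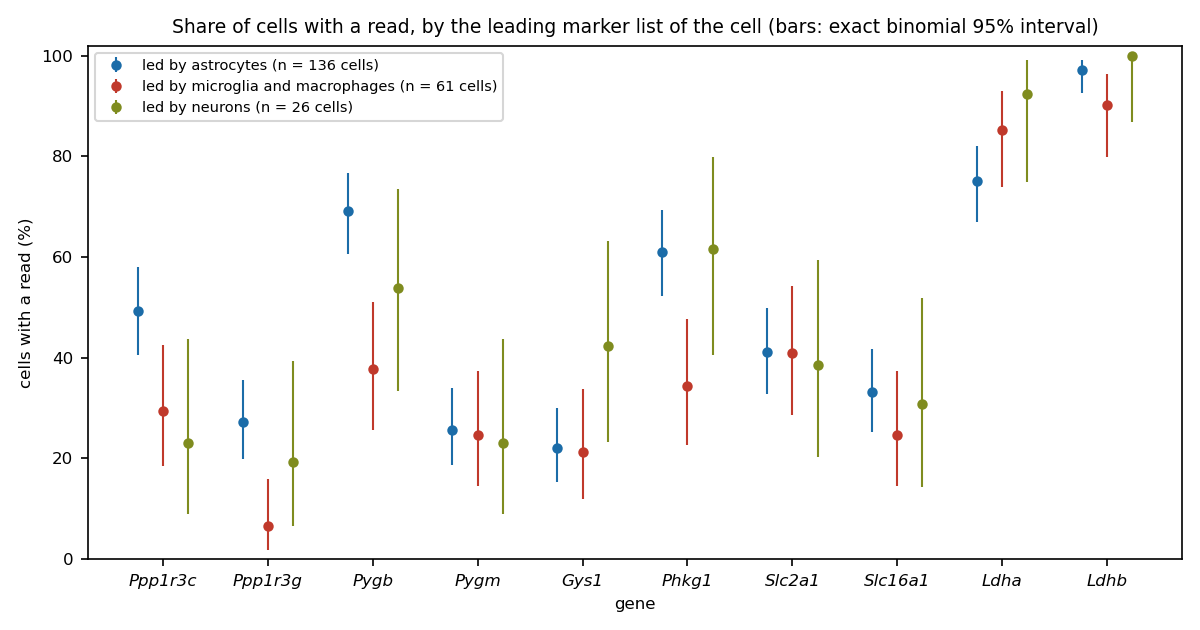
Percent of cells with a read of each gene, with exact binomial 95% intervals for counting error, in cells led by astrocyte, by microglial and by neuronal markers. Ppp1r3c, Ppp1r3g, Pygb and Phkg1 were read in a larger share of astrocyte-led than of microglia-led cells. Before thinning, Pygm, Gys1 and Slc2a1 were read in nearly equal shares.

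The rest of the pathway was followed in 4 lists: glycogen metabolism (24 genes), glucose uptake and glycolysis (23), lactate and pyruvate (16) and signals that act on glycogen (10). In batch 5, 3 of 8 signal genes considered were lower and 1 higher under Sox9 gRNA, and 4 lower and 1 higher under Trps1 gRNA, where 13.9% and 8.96% of all genes were lower. Adora2b, the low-affinity adenosine receptor, was at 331 CPM in 15 of 23 no gRNA cells, at 30.7 CPM in 4 of 21 Sox9 gRNA cells (log2 ratio -3.23) and at 40.6 CPM in 2 of 30 Trps1 gRNA cells (-2.88). Adra1a, an alpha-1 adrenergic receptor, was at 68.1, 10.6 and 5.97 CPM (-2.23 and -2.74). Adcyap1r1, the receptor of the peptide PACAP, was at 279 CPM with no gRNA, 228 under Sox9 gRNA and 66.1 under Trps1 gRNA (-2.0 for the last). Pdk1, a kinase that holds back pyruvate dehydrogenase, was at 0.908 CPM with no gRNA, 29.2 under Sox9 gRNA (2.53) and 59.7 under Trps1 gRNA (3.45). Both comparisons share the no gRNA cells.

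Over the lists, under Sox9 gRNA in batch 5, 0 of 18 glycogen genes considered were higher and 4 lower, 3 of 20 glycolysis genes higher and 2 lower, and 1 of 13 lactate and pyruvate genes higher and 2 lower, beside 13.7% and 13.9% of all genes. The higher ones included the regulators of glycolysis Pfkfb2 (49.8 against 18.6 CPM, log2 ratio 1.22) and Pfkfb3 (94.4 against 23 CPM, 1.82), and the lower ones the lactate dehydrogenase Ldhd (15.5 against 71.0 CPM, -1.89). Pfkfb3, though higher in pooled level, was read in 7 of 21 Sox9 gRNA cells and 9 of 23 no gRNA cells. Under Trps1 gRNA the counts were 4 higher and 0 lower of 18, 3 and 1 of 21, and 4 and 2 of 13, beside 18.8% and 8.96% of all genes and their median log2 ratio of 0.41. Ppp1ca, a catalytic subunit of protein phosphatase 1, was at 378 CPM in 27 of 30 cells against 77.7 CPM in 10 of 23 (2.21), and Igf1r, the receptor of insulin-like growth factor 1, at 78.6 against 22.9 CPM (1.58). Between the gRNAs, with Sox9 gRNA given first, the counts were 1 higher and 4 lower of 19 glycogen genes, 2 and 1 of 20, 0 and 3 of 13, and 2 and 1 of 9, beside 7.62% and 18.2% of all genes. Adcyap1r1 (228 against 66.1 CPM), Pfkfb2 (49.8 against 3.21) and the neuronal glucose transporter Slc2a3 (36.5 against 12.7) were higher under Sox9 gRNA, and Insr, the insulin receptor (8.78 against 63.7 CPM), Ugp2, which makes the synthase's substrate (51.3 against 187), and Gbe1, the branching enzyme (0.351 against 17.1), were lower. Slc2a3 was read in similar shares of cells, 5 of 21 and 8 of 30.

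In batch 4 under Sox9 gRNA, 4 of 16 glycogen genes were higher and 3 lower, 3 of 19 glycolysis genes higher and 5 lower, 1 of 13 lactate and pyruvate genes higher and 2 lower, and 1 of 7 signal genes each way, beside 8.22% of all genes higher and 20.7% lower. Pfkp (812 against 87.4 CPM, log2 ratio 3.14) and Pfkm (246 against 46.7 CPM, 2.28), both subunits of phosphofructokinase, were higher, as was Adcyap1r1 (94.6 against 1.26 CPM, 3.99). Adcyap1r1 was nonetheless read in a smaller share of the Sox9 gRNA cells, 4 of 16 against 6 of 15. Pygl, the liver phosphorylase, was lower, at 26.3 against 142 CPM (-2.23), as were Pgk1 (42.5 against 182 CPM, -1.98), an enzyme of glycolysis, and Ldhd (17.3 against 66.5 CPM, -1.68). In pooled level the liver form of phosphorylase stood opposite to the brain and muscle forms in this comparison. Within the cells of code 21S, however, Pygb (-2.16) and Pygm (-3.02) were below the control too. Microglial markers led 3 of 16 Sox9 gRNA cells and 10 of 15 control cells, and their part in the Pygl ratio was not tested. With both gRNAs, against the same control, Pygl was at 55.5 CPM (-1.28), Pgm1, which interconverts glucose phosphates, at 16.5 against 194 (-3.21) and the lysosomal glucosidase Gaa at 39.7 against 193 (-2.14), while Pdha1 (38.3 against 11.3, 1.41), Pdk1 (110 against 32.7, 1.61) and the lactate transporter Slc16a7 (52.7 against 12.4, 1.73) were higher. There 0 of 14 glycogen genes were higher and 3 lower, 0 of 20 glycolysis genes higher and 6 lower, 3 of 13 lactate and pyruvate genes each way, and 0 of 7 signal genes higher and 3 lower, beside 7.99% and 17.3% of all genes.

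In batch 2, with both gRNAs, the counts were 2 higher and 1 lower of 13 glycogen genes, 2 and 4 of 20 glycolysis genes, 0 and 2 of 12 lactate and pyruvate genes and 1 and 1 of 5 signal genes, beside 11.8% and 14.5% of all genes. Gyg, the primer of glycogen, was at 143 against 35.4 CPM (log2 ratio 1.88), while Pdk2 was at 21.4 against 281 CPM (-3.43). Pdk2 was nonetheless read in a larger share of the cells with both gRNAs, 4 of 8 against 2 of 7. From day 7 to day 21 of control gRNA, 0 of 13 glycogen genes were higher and 5 lower, 0 of 20 glycolysis genes higher and 5 lower, 1 of 12 lactate and pyruvate genes each way and 0 of 4 signal genes either way, beside 9.33% and 21.9% of all genes. Gaa went from 416 CPM in 7 of 8 cells to 0.201 CPM in 2 of 7, Pfkp from 491 to 105 (-2.17) and hexokinase Hk1 from 68.4 to 10.8 (-2.21), and Pdk2 from 22.2 to 281 (3.39), read in 2 of 7 cells of day 21.

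In batch 3 the shift of all genes also carried the lists, with 6 of 17 glycogen genes and 10 of 19 glycolysis genes higher and 0 lower under Sox9 gRNA, and 5 of 15 and 8 of 20 higher and 1 and 2 lower with both gRNAs. Of lactate and pyruvate genes 4 of 14 were higher and 1 lower, and with both gRNAs 3 of 13 and 1, where 48.8% and 40.0% of all genes were higher and 2.61% and 4.45% lower. Pfkl, the liver phosphofructokinase, was at 270 and 220 CPM against no read in 6 no gRNA cells, at least 297-fold and 242-fold higher in the pooled sums. It was read in 19 of 21 Sox9 gRNA cells and in 10 of 14 cells with both gRNAs. Of the signal genes 3 of 7 were lower in each comparison, with 2 and 0 higher. Adora2b was at 34.6 CPM in 4 of 21 Sox9 gRNA cells and had no read in 14 cells with both gRNAs, against 599 CPM in 4 of 6. With both gRNAs the pooled sum was at least 4266-fold lower. The log2 ratio there went from -6.92 to -5.00 without the highest cells. In batch 1, control gRNA against none gave 1 higher and 4 lower of 17 glycogen genes, 5 and 3 of 22 glycolysis genes, 3 and 4 of 14 lactate and pyruvate genes and 0 and 4 of 8 signal genes, beside 17.8% of all genes each way. Gapdh, an enzyme of glycolysis, was at 225 against 27 CPM and the transporter Slc16a3 at 107 against 16.9, while Hk1 was at 30.4 against 180. Ldhd had no read in 10 cells against 87.8 CPM in 7 of 31, at least 324-fold lower in the pooled sum. With both gRNAs in batch 1, 2 of 16 glycogen genes were higher and 7 lower, 2 of 19 glycolysis genes higher and 10 lower, 1 of 12 lactate and pyruvate genes higher and 2 lower, and 0 of 7 signal genes higher and 2 lower, beside 4.56% and 30.7% of all genes and a median log2 ratio of -1.65 over them. There pyruvate carboxylase, Pcx, stood at 312 CPM in 3 of 4 cells against 0.271 CPM in 2 of 10. Ppp1ca had no read in 4 cells against 97.0 CPM in 6 of 10, at least 176-fold lower in the pooled sum.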

How the data were processed

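Each library was 1 cell or in-slice control. The authors deposited 5 tables, 1 for each batch, of raw counts of reads per gene, and Smart-seq2 as labelled carries no molecular identifiers. Per the submitters' processing notes, which assign no steps, the tools include RSEM 1.3.0 and STAR 2.6.0a and the builds mm10 and GRCm38; the sources used here do not give strand handling or gene filters. Rows that name no gene held 75.6% of counts in batch 1, 22.3% in batch 2, 0.379% in batch 4, 0.137% in batch 5 and 0.00115% in batch 3, and were left out of all totals. No 2 libraries had identical columns.

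Counts of the cells of a pool were summed and divided by their total, and pools were compared within a batch only, as log2 of (CPM + 5) ratios. With 1 pool a side no test was made. Intervals are exact Poisson for CPM and Clopper-Pearson for shares, at 95%, and cover counting error alone; reads without molecular identifiers are not independent molecules. A fold against a pool with no read uses a floor of 3 counts in that pool and is a lower bound. Genes entered a comparison at 5 CPM or more in the higher pool and were past the fold at a log2 ratio of 1 or beyond, with all cells and again without each pool's highest cell. The rule was run on simulated counts in which all cells of a pool shared the same mean levels. That check does not cover pools whose reads lie in few cells, and gives no error rate for them. A pooled sum alone does not tell fewer cells with a gene from less RNA per cell. Counts of cells with a read and single-cell levels are therefore given beside many of the sums.

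The 10 genes were all named in every pool; of the 4 pathway lists up to 3 genes a direction with the largest ratio without the highest cells were named, apart from some not reported here. The genes, lists and tests were chosen with earlier results of these data known. Alternatives were the pseudocount, the minimum, the way of pooling, total without mitochondrial genes, shallow cells left out, no condition on the highest cell, centring, series of titles alone and, added after seeing the data, cells led by astrocyte markers. Python 3.11.15, numpy 2.4.6, pandas 2.3.3, scipy 1.17.1 and matplotlib 3.10.9 were used. Motifs were sought in RefSeq start windows of GRCm38.p6, in which all 10 genes were found by symbol.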

Additional observations from a re-analysis of the deposited data

Results flagged for a closer look

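In groups of 4 to 10 libraries, 65 combinations of a member and a pool had any spread. In 22 of them, in 7 pools, 1 library lay far from the others by Dixon's criterion. Its chance rate of about 1 in 20 groups is for normally distributed values, so it is no yardstick for these counts. Most of the flagged libraries are the 1 cell with reads among cells at or near 0. In control gRNA cells of batch 1, 1 of 10 cells had 1035 CPM of Ppp1r3g, 1 had 34.2 CPM of Pygm, 1 had 422 CPM of Slc2a1, and the lowest cell for Ldhb had 2.18 CPM. With both gRNAs in batch 1, 1 of 4 cells had 38.4 CPM of Ppp1r3c and 1 had 0.640 CPM of Ppp1r3g. In control gRNA cells of day 21 in batch 2, 1 of 7 had 19.2 CPM of Pygb. With both gRNAs in batch 2, 1 of 8 cells stood apart for Ppp1r3c (99.8 CPM), Ppp1r3g (73.1), Pygb (303), Pygm (174), Slc2a1 (101) and Slc16a1 (1.88).

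In the 6 no gRNA cells of batch 3, single cells stood apart for Ppp1r3g (36.8 CPM), Pygm (97.7) and Gys1 (134). In-slice controls had such libraries too: in batch 3, 1 of 4 for Pygb (4.97 CPM), Slc2a1 (512) and Slc16a1 (2.78), and in batch 5, 1 of 5 for Ppp1r3c (74.1 CPM), Ppp1r3g (1.0) and Slc2a1 (2.0).

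Slc2a1 with both gRNAs against control gRNA at day 21 had a log2 ratio of 1.06 in batch 4 and -1.46 in batch 2. The difference between the batches was not tested.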

How the results depend on the processing

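Of 46 ratios past the fold, 459 values were recomputed under alternatives, of which 395 were past the fold again and 15 were on the other side of 0. Leaving out the condition on the highest cell gave 7 members in place of 4 for Sox9 gRNA in batch 4, 4 in place of 2 for both gRNAs in batch 4, 6 in place of 3 for both gRNAs in batch 2, 7 in place of 3 for day 21 against day 7 in batch 2, and 7 in place of 3 for both gRNAs in batch 1. A pseudocount of 1 CPM gave 4 for both gRNAs in batch 4 and 6 for the days in batch 2. Centring on the median of all genes gave 1 for both gRNAs in batch 4 and 3 in place of 7 for Sox9 gRNA in batch 3, with Ppp1r3g at -0.021, Ldha at -0.26 and Ldhb at -0.011, and with both gRNAs in batch 3 Slc16a1 at -0.031 and Ldha at -0.28. The mean of the cells' CPM gave 1 in place of 5 for Trps1 gRNA against none.

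Cells led by astrocyte markers alone gave 1 for both gRNAs in batch 4, 5 for the days in batch 2, 3 for Trps1 gRNA against none, 3 in place of 5 for Sox9 against Trps1 gRNA and 3 in place of 6 for control gRNA in batch 1, with Phkg1 there at 0.32, and in batch 4 Gys1 at 0.00, unread on both sides under Sox9 and control gRNA.

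Single series of titles (their meaning is not stated) gave for code 21S in batch 4 -2.16 for Pygb and -3.02 for Pygm. In batch 5 against none, 21T cells gave 1 member past the fold, with Ppp1r3g at 0.39 and Slc2a1 at 1.10, 21T2 cells -2.38 for Slc16a1, and no gRNA cells of code AG 1.28 for Gys1. For Sox9 against Trps1 gRNA, 21T and 21T2 cells gave 3 each, with Ldhb at 0.093 and Slc16a1 at 1.65. In batch 3, code 7S2 gave 4 members in place of 7, and code 7ST2 -0.88 for Slc16a1. The cause was not tested in any of these.

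No paired analysis was possible because each group is 1 pool with no animal named. Leaving out cells under 100000 reads applied to batch 3 alone. Depth limits the genes at few reads most: in the no gRNA pool of batch 3, 3 counts are 0.910 CPM.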
